A study of Equus caballus with 25 samples.

Results

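RUNX1 and RUNX3 are the sequence-specific DNA-binding subunits of the core-binding factors. Their Runt domain binds DNA together with CBFB, a partner subunit that does not bind DNA itself, and the complex activates or represses genes according to the cofactors it recruits. RUNX1 is required for the emergence of blood stem cells and acts in myeloid cells and lymphocytes. RUNX3 is best known for the CD8 T cell lineage, for cytotoxic lymphocytes and for dendritic cells, and mice that lack it in leukocytes develop airway inflammation.

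Both genes were examined in bronchoalveolar lavage (BAL) cells of 25 horses, with 1 array per horse. The label Control marks 7 clinically healthy horses (CTRL), IAD marks 10 horses with mild equine asthma (MEA), and RAO marks 8 horses with severe equine asthma (SEA). No treatment and no genetic change separates the groups. The diseased horses were natural cases sampled at presentation, whereas the CTRL horses were enrolled by their owners. All were sedated with xylazine and lavaged with lidocaine in the saline. According to the study's methods, the CTRL horses were all standardbreds, the diseased groups were mostly saddle horses, and the SEA horses were older than the others, so that disease, breed and, for SEA, age cannot be told apart. MEA was limited to cases with neutrophilic inflammation. The array carried 60-base probes for 7238 equine Ensembl transcripts, each on 2 spots. The members are every probe that the study's supplementary lists of changed transcripts pair with RUNX1 or RUNX3, which gave 1 probe for each gene, 2 of the 7238. Both probes occur only in the list of transcripts that differed between MEA and CTRL, compiled from these same horses. The MEA to CTRL difference below therefore describes how both genes came to be named and is not independent evidence of its direction. The comparisons that involve SEA were not used to name them, but they share arrays with that contrast.

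The probes are shown because all levels below rest on these bases. They are copied from the deposited array design, 5′ to 3′, and are given in lower case. The RUNX1 probe (transcript ENSECAT00000004699) is shown by its first 30 of 60 bases. The capitals mark a stop triplet in the reading frame that starts at its first base. The RUNX3 probe (transcript ENSECAT00000015100) is shown whole and had 0 stop triplets in that frame. In frames 2 and 3, the RUNX1 probe had 0 and 0 stop triplets and the RUNX3 probe 1 and 0. The coding frame is not known here, so the mark does not tell whether either probe lies in coding sequence.
RUNX1: ctgTGAataccaggggtccccacctcttca
RUNX3: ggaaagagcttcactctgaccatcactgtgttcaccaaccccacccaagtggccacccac
Neither probe shared a run of 15 bases with any other probe on the array, on either strand. Whether either probe also binds the transcript of the other gene was not tested. The RUNX1 probe had a GC content of 45%, equal to the median of all probes, whereas the RUNX3 probe had 56.7%, above 98% of probes. The horse genes have several transcript models in RefSeq (assembly TB-T2T), 8 for RUNX1 and 2 for RUNX3, and 1 probe cannot tell such transcripts apart. The probe identifiers have no position in the reference used here, so no coordinates are given.

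On single arrays, 63.5% to 90.4% of spots were well above background in CTRL, 58.2% to 84.1% in MEA and 66.6% to 90.8% in SEA. Both spots of RUNX1 and of RUNX3 were well above background on 25 of 25 arrays, and 0 spots were saturated. RUNX1 was nonetheless faint, with an intensity of 22.05 to 97.35 per array before normalization, against 57.05 to 425.5 for RUNX3. Cyclic loess over all arrays was applied to the log2 values, and the mean of the 2 spots was taken as the level. The 2 spots differed by a median of 0.20 for RUNX1 and 0.07 for RUNX3 on the log2 scale. By group, the medians for RUNX1 and RUNX3 were 0.0705 and 0.074 in CTRL, 0.199 and 0.184 in MEA, and 0.255 and 0.0516 in SEA. The spots of RUNX3 thus lay clearly closer together only in SEA. The largest spot difference was 0.98, for RUNX1 in SEA replicate 8. Nothing in the labels ties horses to each other, and each array is taken as a separate animal. Of the listed macrophage markers, MARCO, CD68, TREM2 and a SIGLEC1 transcript had both spots well above background on 25 of 25 arrays. A further SIGLEC1 transcript, MPEG1 and VSIG4 had this on most arrays. STAB1 had it on only 1 of 7 CTRL, 1 of 10 MEA and 6 of 8 SEA arrays.

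The level of RUNX1 was lowest in CTRL, intermediate in SEA and highest in MEA. In CTRL, the normalized log2 intensity of RUNX1 had a lowest value of 3.53, a median of 4.97 and a highest value of 5.29 (mean 4.68 ± 0.76, SD, n = 7). In SEA, RUNX1 had a lowest value of 4.27, a median of 5.02 and a highest value of 5.89 (mean 5.03 ± 0.48, SD, n = 8). In MEA, RUNX1 had a lowest value of 5.05, a median of 5.66 and a highest value of 6.11 (mean 5.6 ± 0.31, SD, n = 10). The CTRL horses did not form an even spread. CTRL replicates 5 and 6 had 3.53 and 3.64, while the other 5 CTRL horses lay between 4.96 and 5.29. Both low values were under the log2 limit of 4.5 used here to filter transcripts. The study's methods describe an intensity of 4.5 as near the detection limit, without naming the scale. The median of CTRL was thus close to that of SEA, and the distance between their means came mostly from those 2 horses. SEA replicate 1 had the highest RUNX1 of its group, within the range of MEA, and SEA replicate 5 the lowest, at 4.27 also under 4.5.

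RUNX3 followed the same order. In CTRL, its normalized log2 intensity had a lowest value of 6.12, a median of 6.90 and a highest value of 7.5 (mean 6.77 ± 0.54, SD, n = 7). In SEA, RUNX3 had a lowest value of 6.63, a median of 7.22 and a highest value of 7.95 (mean 7.25 ± 0.38, SD, n = 8). In MEA, RUNX3 had a lowest value of 7.11, a median of 7.92 and a highest value of 8.30 (mean 7.80 ± 0.38, SD, n = 10). CTRL replicates 5 and 6 were again the lowest of all 25 horses, but CTRL replicate 1, at 6.37, was close to them. SEA replicate 1 was again the highest of its group, and MEA replicate 1 the lowest of the MEA horses for both genes. All 3 groups overlapped for each gene.

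**Figure D1:**
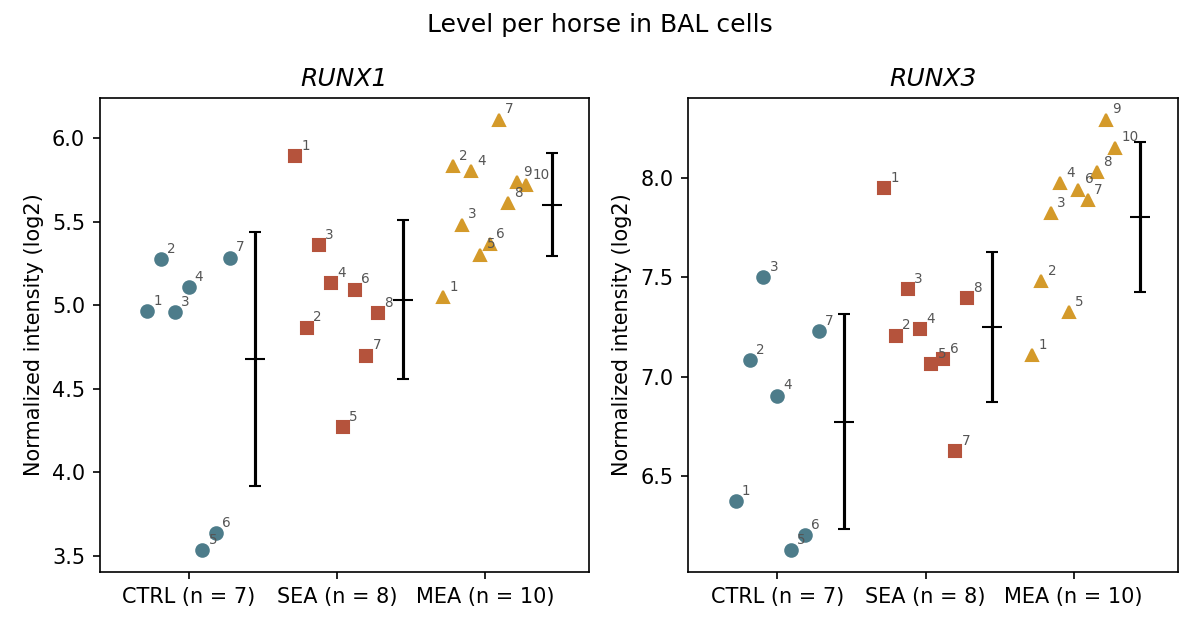
Normalized log2 intensity of RUNX1 (left) and RUNX3 (right) in each horse of CTRL (n = 7), SEA (n = 8) and MEA (n = 10), with replicate numbers beside the points. Bars give the mean ± SD: CTRL replicates 5 and 6 lie lowest for both genes, and SEA replicate 1 lies within the MEA range.

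The horses of 1 group differed less in MEA than in CTRL. The SD of RUNX1 between CTRL horses, 0.76, exceeded that of 79.4% of the transcripts tested, whereas in MEA its SD of 0.31 exceeded only 8.11%. For RUNX3, the corresponding shares were 58.5% in CTRL and 17.3% in MEA. Over all tested transcripts the median SD had the opposite order, with 0.48 in CTRL against 0.58 in MEA. The difference in spread was not tested.

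The same order was looked for in values that had not been normalized between arrays, by the rank of each probe among all probes of its own array. A rank is relative to the other probes of the array, so it is not independent of array brightness. Such ranks depend on the probe's sequence and are compared here only between horses. In MEA, RUNX1 was brighter than 43.9% to 57.9% of the probes on its array, with a median of 50.4%. In CTRL, RUNX1 was brighter than 20.6% to 47.3% of probes (median 43%), and in SEA than 34.4% to 52.1% (median 42.2%). RUNX1 ranked above the highest CTRL horse in 8 of 10 MEA horses, and CTRL replicates 5 and 6, at 23.2% and 20.6%, again stood far below the other CTRL horses. Their log2 intensities before normalization, 4.462 and 4.635, did not stand apart in this way. CTRL replicates 1, 2 and 4 had 4.482, 4.554 and 4.494, and CTRL replicates 3 and 7 had 5.702 and 5.947. By rank, the medians of CTRL and SEA were in the opposite order for RUNX1. RUNX3 was brighter than 65.7% to 76.9% of probes in MEA (median 73.4%), 60.4% to 74.3% in SEA (median 66.5%) and 52.9% to 69% in CTRL (median 62.8%). Its rank exceeded that of the highest CTRL horse in 8 of 10 MEA horses.

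**Figure D2:**
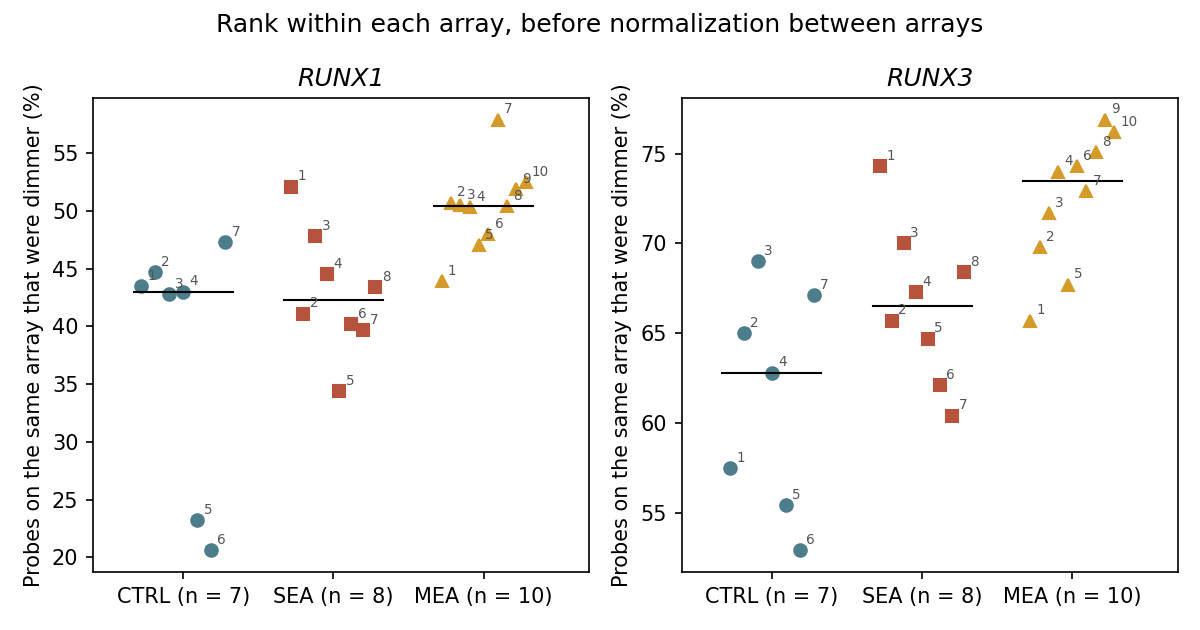
Percentage of the probes on the same array that were dimmer than the RUNX1 probe (left) or the RUNX3 probe (right), before normalization between arrays, for each horse, with the median of each group as a line. MEA horses lie at 43.9% to 57.9% for RUNX1 and 65.7% to 76.9% for RUNX3, and CTRL replicates 5 and 6 lie at the bottom of both panels.

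In MEA compared with CTRL, both genes were overexpressed. RUNX1 differed by 0.92 on the log2 scale (SE 0.26, 95% confidence interval 0.37 to 1.47), a fold change of 1.89, and RUNX3 by 1.03 (SE 0.23, 95% confidence interval 0.55 to 1.51), a fold change of 2.04. In limma, a transcript was called changed at a Benjamini-Hochberg adjusted p below 0.1 over the 4930 transcripts tested and a fold change of at least 1.5. Both genes passed, with an adjusted p of 0.0537 for RUNX1 and 0.0236 for RUNX3, where 9.74% of all transcripts tested were called, 3.23% higher and 6.51% lower in MEA. All 10 MEA horses lay above the CTRL mean for each gene. RUNX1 exceeded the highest CTRL horse in 9 of 10 MEA horses and RUNX3 in 7 of 10. Of the transcripts tested, 1.52% had a larger difference than RUNX3 and 2.47% a larger one than RUNX1, against a median difference of 0.03 over all transcripts.

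The RUNX1 difference between MEA and CTRL depended on CTRL replicates 5 and 6, the CTRL arrays with the highest percentage of spots well above background (86.2% and 90.4%). Without CTRL replicate 6, RUNX1 differed by 0.75 and was no longer called in limma (adjusted p = 0.127), and without both horses it differed by 0.48 (adjusted p = 0.178). RUNX3 stayed called in limma without both horses, with a difference of 0.79 (adjusted p = 0.0975), and when any single horse was left out (highest adjusted p = 0.069). The arrays lay on 4 slides, each of which held horses of all 3 groups. Within the slides, MEA exceeded CTRL on 4 of 4 for both genes, by 0.32, 1.23, 1.07 and 0.45 for RUNX1 and by 0.57, 1.14, 1.09 and 0.81 for RUNX3. Slides 2 and 3, with the largest differences, held CTRL replicates 5 and 6. Slide 3 held 1 MEA array, and slide 4 held 1 CTRL array. With the slide as a block in limma, RUNX1 differed by 0.75 and was not called (adjusted p = 0.172), and RUNX3 differed by 0.89 and was called (adjusted p = 0.0738). Normexp background correction with an offset of 50, which compresses low intensities, reduced the RUNX1 difference to 0.30 (adjusted p = 0.163 in limma).

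RUNX1 correlated with the percentage of spots well above background at r = -0.754 in CTRL (exact permutation p = 0.0492, adjusted p = 0.295 over 6 relations) and at r = -0.591 in SEA (exact permutation p = 0.128, adjusted p = 0.385). In SEA, rho was -0.738 for RUNX1 (exact permutation p = 0.0458, adjusted p = 0.137) and -0.81 for RUNX3 (exact permutation p = 0.0218, adjusted p = 0.131). With this percentage as a covariate, RUNX1 differed by 0.83 between MEA and CTRL (adjusted p = 0.0498 in limma).

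In SEA compared with CTRL, neither gene passed the test, in a comparison where 32.5% of all transcripts tested were called, 15.9% higher and 16.6% lower in SEA. RUNX1 differed by 0.35 (SE 0.31, 95% confidence interval -0.31 to 1.01, p = 0.274 and adjusted p = 0.427 in limma), a fold change of 1.28. RUNX3 differed by 0.48 (SE 0.24, 95% confidence interval -0.04 to 0.99, p = 0.0667 and adjusted p = 0.154 in limma), a fold change of 1.39. For each gene, 7 of 8 SEA horses lay above the CTRL mean, but only 2 exceeded the highest CTRL horse for RUNX1 and 1 for RUNX3. For RUNX1 the interval still holds a difference as large as that between MEA and CTRL, and for RUNX3 it ends just below it, so an equal level in SEA and CTRL was not shown. Without CTRL replicates 5 and 6, RUNX1 in SEA was on the other side of CTRL, at -0.09 (adjusted p = 0.834 in limma), and RUNX3 was 0.23 higher (adjusted p = 0.533 in limma). RUNX3 was called in 1 of the 15 fits that left out a single horse, the fit without CTRL replicate 3 (adjusted p = 0.0811 in limma). Within the slides, SEA exceeded CTRL on 3 of 4 for RUNX1 and on 4 of 4 for RUNX3.

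Set directly against each other, SEA horses had less RUNX1 and RUNX3 than MEA horses, but neither difference passed the adjusted threshold. RUNX1 differed by -0.57 in SEA (SE 0.20, 95% confidence interval -0.98 to -0.15), a fold change of 1.48, and RUNX3 by -0.55 (SE 0.20, 95% confidence interval -0.96 to -0.14), a fold change of 1.47. The unadjusted p in limma was 0.0102 for RUNX1 and 0.0105 for RUNX3, and the adjusted p was 0.146 and 0.147. An exact rank sum test gave an adjusted p of 0.172 and 0.166. In this comparison, 2.05% of all transcripts tested were called, 1.32% higher and 0.730% lower in SEA, while 20.7% had an unadjusted p below 0.05. For each gene, 7 of 8 SEA horses lay below the MEA mean. RUNX1 was below the lowest MEA horse in 4 of 8 SEA horses and RUNX3 in 3 of 8.

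SEA replicate 1 was the horse above the MEA mean, at 5.89 for RUNX1 and 7.95 for RUNX3. Without it, both genes were called lower in SEA in limma, with differences of -0.69 for RUNX1 (adjusted p = 0.0517) and -0.65 for RUNX3 (adjusted p = 0.0708). RUNX3 was also called in limma without MEA replicate 1 (-0.63, adjusted p = 0.0898) or MEA replicate 5 (-0.61, adjusted p = 0.0974), the 2 MEA horses with the lowest RUNX3. SEA replicate 1 was the single SEA array on the first slide, where SEA exceeded MEA by 0.45 for RUNX1 and 0.66 for RUNX3. On the other 3 slides, SEA was lower than MEA by -0.63, -0.48 and -0.78 for RUNX1 and by -0.41, -0.97 and -0.65 for RUNX3. With the slide as a block in limma, the differences were -0.42 (adjusted p = 0.424) and -0.38 (adjusted p = 0.443). The main fits used all horses, without a block, covariate or array weights. In them, the neighbouring groups CTRL and SEA, and SEA and MEA, did not differ past the threshold for either gene. MEA and CTRL did, but both genes were named through that contrast. With the slide as a block, RUNX1 was not called there either.

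**Figure D3:**
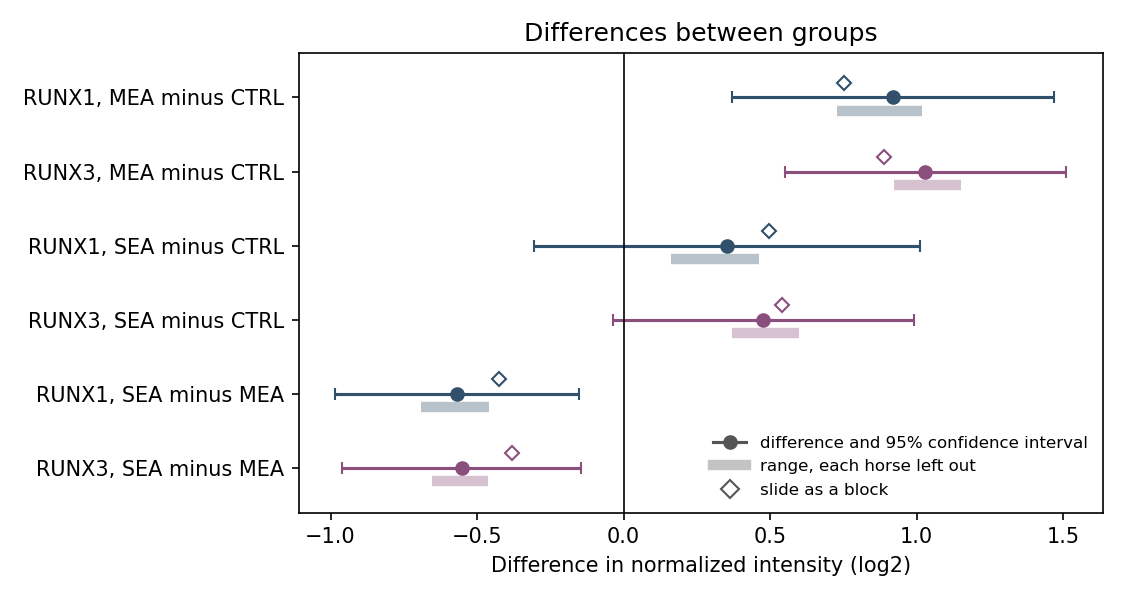
Difference in normalized log2 intensity of RUNX1 and RUNX3 in the 3 comparisons, with the 95% confidence interval from limma, the range when each horse was left out in turn and the value with the slide as a block. The intervals of MEA minus CTRL lie above 0, those of SEA minus CTRL include 0, and those of SEA minus MEA lie below 0.

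RUNX1 and RUNX3 varied together between horses in CTRL and SEA by Pearson's r, and in SEA also by rank. Pearson's r between them was 0.788 in CTRL (two-sided exact permutation p = 0.0254, adjusted p = 0.0443 over the 3 groups), 0.794 in SEA (exact permutation p = 0.0295, adjusted p = 0.0443) and 0.578 in MEA (permutation p = 0.0804, adjusted p = 0.0804). Spearman's rho was 0.643 in CTRL (exact permutation p = 0.139, adjusted p = 0.208), 0.857 in SEA (exact permutation p = 0.0107, adjusted p = 0.0321) and 0.406 in MEA (permutation p = 0.247, adjusted p = 0.247). After the 2 horses farthest from the median of RUNX3 were left out, r fell to 0.252 in CTRL (without replicates 5 and 6), to 0.641 in SEA (without replicates 1 and 7) and to -0.115 in MEA (without replicates 1 and 5). The values of r in CTRL and MEA therefore rested on those horses. With group and slide effects both removed, r over the 25 horses was 0.763, and it was 0.656 without CTRL replicates 5 and 6. Whether binding of either probe to the transcript of the other gene adds to these values was not tested.

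**Figure D4:**
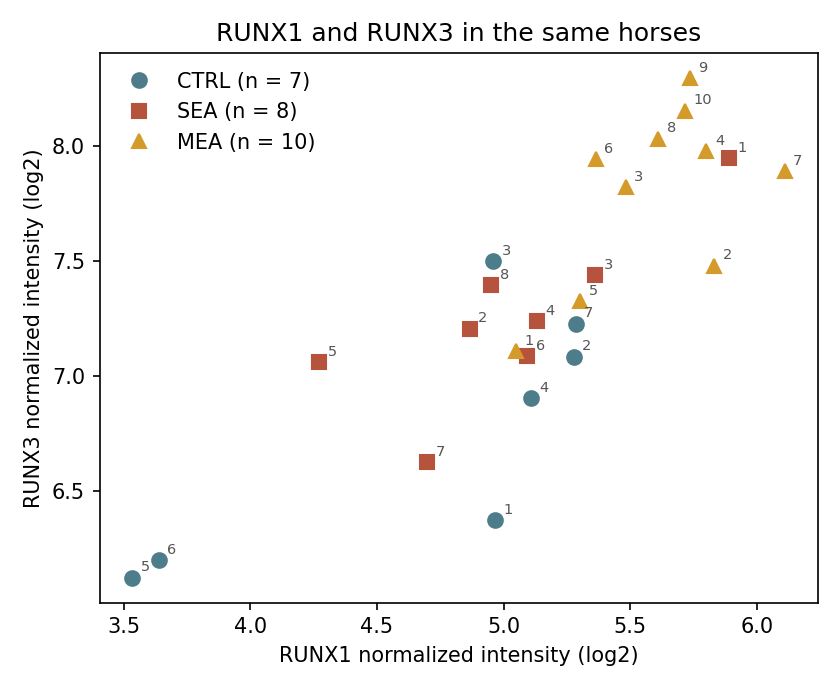
Normalized log2 intensity of RUNX3 against that of RUNX1 in each of the 25 horses, with the group as symbol and the replicate number beside it. CTRL replicates 5 and 6 lie at the lower left, most MEA horses and SEA replicate 1 at the upper right.

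Likeness to other transcripts was measured by Pearson's r over the 25 horses after the mean of each group was subtracted, which is a description and shares array and normalization between all transcripts. RUNX1 was the transcript most like RUNX3 among 4929 others, with r = 0.727. In the other direction, RUNX3 was in place 5 of 4929 for RUNX1. The percentiles 5 and 95 of r over all transcripts were -0.353 and 0.376 for RUNX1 and -0.35 and 0.328 for RUNX3. Among transcripts with a symbol, those most like RUNX1 were PRPF4B, a kinase of pre-mRNA splicing (r = 0.791), RUNX3, LENG8 (r = 0.575), BNIPL (r = 0.569) and PKN3, a protein kinase of the PKN family (r = 0.56). After RUNX1, those most like RUNX3 were MDM2, the ubiquitin ligase of p53 (r = 0.707), GNL3L, a nucleolar GTPase (r = 0.652), PRPF4B (r = 0.523) and PIKFYVE, a phosphoinositide kinase (r = 0.505). PRPF4B was thus the other named transcript on both lists.

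The relation to the cell makeup of the lavage was examined with the differential cell count of each horse. In these mixed cells, fewer cells of a type and less RNA per cell cannot be told apart. The lymphocyte percentages of MEA and CTRL did not overlap and were higher in MEA, and the macrophage percentages of all 3 groups lay in separate ranges, so percentage and diagnosis cannot be told apart between those groups and correlations were computed only within a group. Of 12 correlations of RUNX1 or RUNX3 with the lymphocyte or macrophage percentage, 0 had a permutation p below 0.05, adjusted or not. For RUNX1, r with the lymphocyte percentage was 0.311 in CTRL (exact permutation p = 0.527), 0.205 in MEA (permutation p = 0.57) and 0.276 in SEA (exact permutation p = 0.409). Spearman's rho was -0.162, 0.248 and 0.434 (permutation p = 0.733, 0.492 and 0.284). For RUNX3 and the lymphocyte percentage, CTRL had an r of -0.01, MEA of 0.02 and SEA of 0.06 (permutation p = 0.973, 0.961 and 0.825), with rho of -0.04, -0.13 and 0.30 (permutation p = 0.951, 0.735 and 0.467). The value for RUNX1 in SEA depended on the scaling: with arrays scaled to the 75th percentile in place of cyclic loess, r was 0.917 (exact permutation p = 0.00476, adjusted p = 0.0571 over the 12, rho was 0.735), and with quantile normalization it was 0.03. Without the 2 horses farthest from the median lymphocyte percentage, the value with 75th percentile scaling was 0.486, so it rested on those horses.

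With the macrophage percentage, RUNX1 had an r of -0.317 in CTRL, 0.216 in MEA and -0.07 in SEA (permutation p = 0.531, 0.544 and 0.867), and rho was -0.487, -0.03 and -0.214 (permutation p = 0.273, 0.939 and 0.619). RUNX3 had an r of -0.318 in CTRL, 0.301 in MEA and -0.296 in SEA (permutation p = 0.566, 0.398 and 0.466), and rho was -0.252, 0.207 and -0.50 (permutation p = 0.583, 0.56 and 0.216). The adjusted p of r was at least 0.855 for all 12 correlations. In CTRL, where 2 horses lay far from the median macrophage percentage, both signs turned when those were left out (r = 0.444 for RUNX1 and 0.402 for RUNX3).

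When the lymphocyte percentage was added to the limma fit of MEA and CTRL, RUNX1 differed by 0.57 (SE 0.55, adjusted p = 0.652) and RUNX3 by 1.02 (SE 0.48, adjusted p = 0.321). With the macrophage percentage, the differences were 0.70 (SE 0.55, adjusted p = 0.882) and 1.0 (SE 0.49, adjusted p = 0.876). The difference of RUNX3 was hardly smaller in these fits, but its SE was larger than the 0.23 of the fit without a percentage. With the epithelial percentage, which overlapped between the groups, RUNX1 differed by 0.95 (adjusted p = 0.271 in limma) and RUNX3 by 1.08 (adjusted p = 0.189 in limma), and neither was called. In each of these 3 fits, limma called 0 of 4930 transcripts, while 763, 266 and 613 had an unadjusted p below 0.05 with the lymphocyte, macrophage and epithelial percentage. With the macrophage percentage in the fit of SEA and CTRL, both differences turned, to -0.18 for RUNX1 (SE 1.6) and -0.49 for RUNX3 (SE 1.22).

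Markers of the cell types in BAL were also read from the arrays. Their symbols, like those of the lists below, come from the study's lists of changed transcripts in these horses, so that counts of called members are read against the transcripts with a symbol. The mean log2 intensity of 14 T and NK cell transcripts ranged from 5.59 to 6.81 in CTRL, from 5.57 to 7.28 in MEA and from 5.37 to 7.96 in SEA, with group means of 6.31 ± 0.43, 6.33 ± 0.64 and 6.96 ± 0.78 (SD). Of these 14 transcripts, 12 have a symbol through the list of changes between SEA and CTRL, so their level in SEA is not set against that of RUNX1 and RUNX3. In MEA compared with CTRL, 1 was called higher and 1 lower, where 7.07% of transcripts with a symbol were called higher and 18.1% lower. In SEA compared with CTRL, 8 were called higher and 1 lower, where 42.0% were called higher and 44.1% lower. The same shares are the background of the other marker lists. The 2 B cell transcripts (FCRL1 and BLK) had mean levels of 2.91 to 5.67 in CTRL, 3.36 to 6.6 in MEA and 4.97 to 6.95 in SEA, and both were called higher in SEA than in CTRL.

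The mean of 7 macrophage transcripts ranged from 7.81 to 9.51 in CTRL, from 8.09 to 9.89 in MEA and from 8.2 to 9.78 in SEA, and 2 of them were called higher in MEA than in CTRL and 3 in SEA. The mean of 10 neutrophil transcripts ranged from 7.62 to 10.25 in CTRL, from 8.51 to 12.54 in MEA and from 8.06 to 12.36 in SEA. The counted neutrophil percentages did not overlap between SEA and MEA and were higher in SEA. Yet MEA replicate 3 had the highest marker mean of all horses (12.54), and SEA replicate 1 (8.06) lay below every MEA horse. The reason was not tested, and the correlations and fits with cell percentages above take the counts as given. Of the 10 neutrophil transcripts, 8 were called higher and 1 lower in SEA than in CTRL, and 0 higher and 1 lower in MEA, where 1 was higher at an unadjusted p below 0.05 in limma and 1 was called higher by the rank sum test. Transcripts of ciliated epithelial cells were lower in both diseases. Their mean ranged from 9.41 to 11.09 in CTRL, from 6.13 to 10.51 in MEA and from 4.41 to 9.65 in SEA, and 10 of 10 were called lower than in CTRL in each disease, where 18.1% of transcripts with a symbol were called lower in MEA and 44.1% in SEA. The part of these cell types in the RUNX1 and RUNX3 differences was not tested.

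The partners through which RUNX proteins act were described from a list of 46 symbols of cofactors and interacting factors, of which 16 had a transcript with a symbol and 17 transcripts were tested. All 17 have a symbol through the list of changes between SEA and CTRL, which fixes in part where they differ. In MEA compared with CTRL, 0 partner transcripts were called higher and 1 was called lower, in limma and by the rank sum test alike. At an unadjusted p below 0.05 in limma, 4 were higher and 1 was lower, where 22.8% of all transcripts tested had such a p. The transcript called lower was WWTR1, the transcriptional coactivator TAZ, named after its value was seen (difference -1.16, SE 0.32, adjusted p = 0.0479 in limma). Among all 1684 tested transcripts with a symbol, the partners included, 7.07% were called higher and 18.1% lower in MEA. The median difference of the partners was 0.28, against -0.09 for transcripts with a symbol and 0.03 for all transcripts tested. In SEA compared with CTRL, 12 partner transcripts were called higher and 4 lower, with a median of 0.85, where 42.0% of transcripts with a symbol were called higher and 44.1% lower, with a median of -0.38. In SEA compared with MEA, 0 of 17 were called in limma or by the rank sum test. Limma called 3.62% of transcripts with a symbol higher and 1.60% lower there. At an unadjusted p below 0.05 in limma, 2 partner transcripts were higher and 2 lower, where 20.7% of all transcripts tested had such a p. The partners had a median of 0.48 and individual values from -1.60 to 0.99.

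The 4 partner transcripts with the largest differences all differed most between SEA and CTRL. TLE2, a corepressor of the Groucho family that RUNX proteins bind, had a mean log2 intensity of 10.45 ± 0.85 in CTRL, 9.95 ± 1.26 in MEA and 8.35 ± 1.37 in SEA (SD). It was underexpressed in SEA compared with CTRL by a difference of -2.10 (SE 0.55, adjusted p = 0.0163 in limma). TLE3, of the same family, had 6.8 ± 0.78 in CTRL, 7.22 ± 1.02 in MEA and 8.18 ± 1.17 in SEA, and differed by 1.38 in SEA (SE 0.48, adjusted p = 0.0443 in limma). A second TLE3 transcript differed by 1.24 in SEA, so that 2 relatives in the same family of corepressors were called in opposite directions. MYST3, a histone acetyltransferase also known as KAT6A, had 6.71 ± 0.67 in CTRL, 7.34 ± 0.79 in MEA and 8.21 ± 0.99 in SEA, and differed by 1.5 in SEA (SE 0.41, adjusted p = 0.0186 in limma). CCND1, the cell cycle regulator cyclin D1, had 8.83 ± 0.91 in CTRL, 8.36 ± 0.87 in MEA and 7.37 ± 1.07 in SEA, and differed by -1.45 in SEA (SE 0.48, adjusted p = 0.0347 in limma). The 4 were not called in MEA, with differences between -0.50 and 0.63.

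Reported targets of RUNX proteins were described from a list of 27 symbols, of which 10 had a transcript with a symbol and 12 transcripts were tested. In MEA compared with CTRL, 0 of 12 were called in limma or by the rank sum test. Limma called 7.07% of transcripts with a symbol higher and 18.1% lower there. At an unadjusted p below 0.05 in limma, 1 target transcript was lower, where 22.8% of all transcripts tested had such a p. The differences of the targets ran from -0.94 to 0.62, with a median of 0.14. In SEA compared with CTRL, 8 were called higher and 1 lower, with a median of 1.12, where 42.0% of transcripts with a symbol were called higher and 44.1% lower. In SEA compared with MEA, 2 of 12 were called higher in limma and 0 by the rank sum test, where 3.62% of transcripts with a symbol were called higher, and the median was 0.94. The mean log2 intensity over the 12 target transcripts was 6.71 ± 0.57 in the CTRL horses, 6.76 ± 0.64 in MEA and 7.54 ± 0.71 in SEA (SD). All 12 have a symbol because the study listed them as changed between SEA and CTRL, so these levels are not set against those of RUNX1 and RUNX3.

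SPP1, the secreted phosphoprotein osteopontin, had a mean log2 intensity of 10.79 ± 1.61 in CTRL, 10.77 ± 2.21 in MEA and 14.25 ± 1.84 in SEA (SD). It was overexpressed in SEA by 3.46 compared with CTRL (SE 0.82, adjusted p = 0.0124 in limma) and by 3.48 compared with MEA (SE 0.89, adjusted p = 0.0857 in limma). CCR7, the chemokine receptor that guides T cells and dendritic cells to lymph nodes, had 6.11 ± 1.06 in CTRL, 6.19 ± 1.17 in MEA and 7.94 ± 0.86 in SEA, and was overexpressed in SEA by 1.83 compared with CTRL (adjusted p = 0.0147 in limma) and by 1.76 compared with MEA (adjusted p = 0.0857 in limma). IL2RA, the alpha chain of the interleukin 2 receptor, had 5.06 ± 0.71 in CTRL, 5.55 ± 0.71 in MEA and 6.67 ± 0.80 in SEA, and was overexpressed in SEA by 1.61 compared with CTRL (adjusted p = 0.0114 in limma). CTLA4, an inhibitory receptor of activated and regulatory T cells, had 3.68 ± 0.80 in CTRL, 4.16 ± 0.71 in MEA and 5.11 ± 0.91 in SEA, and differed by 1.43 between SEA and CTRL (adjusted p = 0.0227 in limma). CTLA4 was faint, with both spots well above background on 4 of 7 CTRL, 7 of 10 MEA and 8 of 8 SEA arrays, so that its difference rests in part on spots near background. It also belongs to the T and NK cell list above. Between SEA and MEA, IL2RA and CTLA4 were not called (adjusted p = 0.113 and 0.159 in limma).

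**Figure D5:**
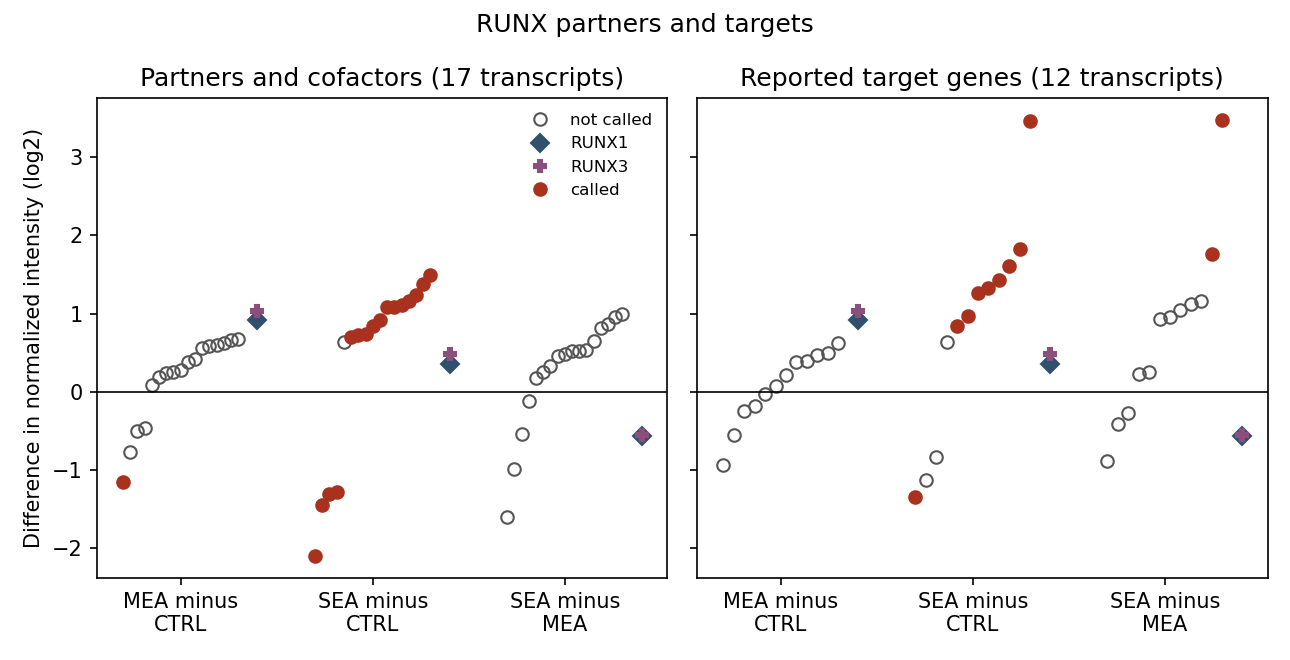
Difference in normalized log2 intensity of 17 transcripts of RUNX partners (left) and 12 of reported RUNX targets (right) in the 3 comparisons, with called transcripts filled and RUNX1 and RUNX3 beside them. The listed transcripts have a symbol through the changes between SEA and CTRL, RUNX1 and RUNX3 through those between MEA and CTRL. Their positions are therefore not set against each other.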

How the data were processed

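For each of 25 arrays the authors deposited one-color spot intensities from the scanner software (Feature Extraction), corrected for background and spatial trend within the array. They also deposited 1 table of cyclic loess normalized intensity values on a linear scale, taken to log2 here as an alternative, whose log2 values correlated with those used here at r = 0.99937. The submitters' processing notes name R 2.11.1. Intensities were taken to log2 and normalized together with limma 3.58.1 in R 4.3.3 (cyclic loess, span 0.7, 3 iterations), and transcripts below 4.5 in at least 19 arrays were left out, which left 4930. Both members passed. For each comparison lmFit and eBayes were run on the arrays of both groups. The methods' program (SAM) was replaced by limma. Where a transcript's adjusted p is given, it comes from limma. Correlations were tested by two-sided permutation, exact for 7 and 8 horses and with 1e+05 resamples for 10 (Python 3.11.15, numpy 2.4.6). The steps were tested on simulated data, in which 200 of 4930 transcripts were changed by 1.5 on the log2 scale. That change was larger than any difference of RUNX1 or RUNX3 given here. For MEA and CTRL, 83% were recovered and 33 of 199 calls were false. For SEA and CTRL, the values were 80.5% and 20 of 181, and for SEA and MEA, 83.5% and 19 of 186.

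Symbols came from the study's supplementary lists, which name 1865 transcripts. Members and gene lists were chosen with earlier results of these data known. Of each RUNX list, the 4 transcripts with the largest difference in any comparison are given with values, and for each member the 5 named transcripts most like it. Sex and cell percentages of each horse, used as covariates and for correlations, came from the study's cytology. Arrays have no read depth, and the number of horses limits the precision. Replicate numbers were tested as a block only as an alternative. The fit with the share of spots well above background, the fit without flagged spots, the fit without normalization between arrays and the fit without CTRL replicates 5 and 6 were chosen after the data were seen.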

Additional observations from a re-analysis of the deposited data

How the results depend on the processing

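Values are differences on the log2 scale. Among 148 results of the alternatives for RUNX1 and RUNX3, horses left out singly apart, most kept their direction and their side of the threshold, 15 were weaker, 2 stronger and 3 reversed. Between MEA and CTRL, RUNX1 was no longer called with an adjusted p below 0.05 as the limit (0.92), with epithelial (0.95), lymphocyte (0.57) or macrophage (0.70) percentage as a covariate, after normexp (0.30), with slide or scan date as a block (0.75 for each), without normalization between arrays (0.65) and without CTRL replicates 5 and 6 (0.48). RUNX3 was no longer called with epithelial (1.08), lymphocyte (1.02) or macrophage (1.0) percentage or without normalization between arrays (0.73). Between SEA and CTRL, the direction turned with the macrophage percentage for RUNX1 (-0.18) and RUNX3 (-0.49) and without CTRL replicates 5 and 6 for RUNX1 (-0.0858). Between SEA and MEA, both were called with array weights (-0.75 and -0.79, adjusted p = 0.0104 and 0.00997 in limma). The cause was not tested. Leaving out single horses gave, for MEA and CTRL, 0.73 to 1.02 for RUNX1 and 0.92 to 1.15 for RUNX3, for SEA and CTRL, 0.16 to 0.46 and 0.37 to 0.60, and for SEA and MEA, -0.69 to -0.46 and -0.65 to -0.46.

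No label pairs the horses. After group means were subtracted, same-numbered CTRL and MEA horses, of which 6 of 7 pairs shared a slide, correlated between -0.441 and 0.356 (median 0.142, 4 of 7 above 0.1), and those of the other group pairs between -0.364 and 0.407. With the replicate number as a block, MEA and CTRL differed by 0.88 for RUNX1 (adjusted p = 0.14 in limma) and 0.88 for RUNX3 (adjusted p = 0.111 in limma), neither called, and 136 instead of 480 transcripts were called.

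The number of transcripts called between MEA and CTRL, 480, was 0 with any of the 3 cell percentages, 118 after normexp, 171 with slide and 216 with scan date as a block, 195 without CTRL replicates 5 and 6, 208 at an adjusted p below 0.05, 239 without normalization between arrays and 929 with array weights. Between SEA and CTRL, 1601 became 55 with the macrophage percentage, 754 after normexp and 938 without normalization between arrays. Between SEA and MEA, 101 ranged from 0 (75th percentile scaling, lymphocyte percentage, slide or replicate block) to 816 (array weights), and the fits with 0 calls in limma had 545 to 993 transcripts at an unadjusted p below 0.05. Scaling to the 75th percentile moved the median of all transcripts to -0.11 between SEA and MEA.

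Of 72 recomputed correlations with cell percentages, 0 had an adjusted p below 0.05 and 15 had the other sign. RUNX1 and lymphocytes in SEA rose from 0.276 to 0.917 with 75th percentile scaling (adjusted p = 0.0571, permutation). By rho the reversed values were -0.162 (RUNX1 and lymphocytes, CTRL), -0.0305 (RUNX1 and macrophages, MEA) and -0.127 (RUNX3 and lymphocytes, MEA). Without the 2 horses farthest from the median they were, in CTRL, -0.0299 and 0.444 for RUNX1 and 0.316 and 0.402 for RUNX3, with lymphocytes and macrophages. RUNX1 and macrophages in SEA turned to 0.569 with 75th percentile scaling and to 0.0895 after normexp. RUNX3 and lymphocytes turned in CTRL to 0.0252 after normexp, in MEA to -0.0116 with 75th percentile scaling, -0.0596 after normexp and -0.0354 with quantile normalization, and in SEA to -0.10 in the authors' values and -0.15 with quantile normalization.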
